A study of Homo sapiens with 4 samples.

Results

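Nonhomologous end joining was examined through 10 genes: XRCC5, XRCC6, PRKDC, DCLRE1C, POLL, POLM, XRCC4, LIG4, NHEJ1 and TP53BP1. They were picked by gene symbol for their known roles. All 10 are among the 26364 genes listed in each sample, and all 10 had a mean of at least 1 RPKM (reads scaled to gene length and to the total of reads). RNA-seq was carried out in the human neuroblastoma line BE(2)C, which carries amplified MYCN, with 2 samples in each of 2 conditions. The cells were given either a control siRNA with no target (Ctrl) or siRNA against MYCN (MYCN KD) with a lipid reagent. After 6 h medium with serum was added, with no removal of the siRNA described, and the cells were collected the next day. The sample labels give 80 nM siRNA, while the methods of the study give a lower final concentration. A single siRNA product and a single cell line stand behind each condition, and all cells carried the same MYCN amplification. The replicates are called biological in the methods, but no source says that they were separate cultures, so p-values measure only the spread between these samples. That spread was not independent between conditions. Over 11411 genes, the difference between replicates 1 and 2 in Ctrl and that in MYCN KD had a correlation of -0.9845. The adjusted p-values and counts of called genes below assume independent samples, which these were not.

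Double-strand breaks are joined by this pathway without a template. The Ku heterodimer, made of Ku80 (XRCC5) and Ku70 (XRCC6), binds the broken ends and recruits the kinase DNA-PKcs (PRKDC). Artemis (DCLRE1C) trims the ends, the polymerases lambda (POLL) and mu (POLM) fill gaps, and ligase IV (LIG4) seals the break with XRCC4 and XLF (NHEJ1). 53BP1 (TP53BP1) favours this route over homologous recombination by limiting resection of the ends. The comparison asks whether transcripts of these factors changed when MYCN, a transcription factor that binds E-boxes, was lowered.

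The totals behind the RPKM values, recovered from the values themselves, ran from 29055819 in MYCN KD replicate 1 to 34142988 in Ctrl replicate 1. Because the authors normalized the counts before computing RPKM, these totals need not equal the reads sequenced. MYCN itself, the targeted gene, was at 1068 and 1073 RPKM in Ctrl and at 720.2 and 718.0 RPKM in MYCN KD (log2 fold change -0.57, standard error 0.029, limma adjusted p = 0.00361). Adrenergic neuroblastoma markers were abundant, with a summed level of 2808 to 4372 RPKM over 8 genes. Of these 8, 5 were called higher and 1 lower in MYCN KD. Of 3 tested fibroblast markers, 2 were called higher, and the 5 listed ones summed to 12.6 to 19.6 RPKM. Among all tested genes, 25.3% were called higher and 22.8% lower. Blood markers summed to at most 0.0450 RPKM, endothelial markers to at most 0.638 RPKM and epithelial markers to at most 2.01 RPKM. Differences were tested with limma on log2(RPKM + 1) over 11411 genes with Benjamini-Hochberg adjustment, and a gene was called when its adjusted p was under 0.05. On this scale the change of genes at low RPKM is understated.

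Of the 10 end joining genes, 4 were called: PRKDC and XRCC6 fell, and LIG4 and POLL rose. The share called was no larger than the background, since 48.1% of all tested genes were called (25.3% higher and 22.8% lower). The members' median log2 fold change was -0.0088, beside 0.026 for all tested genes, and 5 members had a negative and 5 a positive value. In 7 of the 10 the samples of the conditions did not overlap, against 76.2% of all tested genes. MYCN KD lay above in 4 (40.4% of all tested genes) and below in 3 (35.8%). The 10 genes did not share a direction, and their values are given gene by gene, ordered by role.

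Several of these genes start next to a gene on the opposite strand, so that a short stretch lies between the starts of the pair. In RefSeq (GRCh38.p14), 250 of the 251 bases between XRCC6 and DESI1 are shown because both genes fell. The 42 bases between LIG4 and ABHD13 are shown because LIG4 alone was called. For TP53BP1, the 250 bases nearest to its start are shown, of the 313 bases that separate it from MAP1A. Each runs 5′ to 3′ on the strand of the end joining gene, and capitals mark the words CANNTG, the general E-box, which reads the same pattern on both strands.
XRCC6, chr22:41621045-41621294, plus strand: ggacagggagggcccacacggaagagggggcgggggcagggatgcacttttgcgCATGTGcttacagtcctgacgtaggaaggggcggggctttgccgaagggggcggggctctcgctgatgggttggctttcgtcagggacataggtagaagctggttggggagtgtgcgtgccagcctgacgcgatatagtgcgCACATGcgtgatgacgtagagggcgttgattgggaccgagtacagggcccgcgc
LIG4, chr13:108218350-108218391, minus strand: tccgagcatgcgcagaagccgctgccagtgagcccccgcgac
TP53BP1, chr15:43510641-43510890, minus strand: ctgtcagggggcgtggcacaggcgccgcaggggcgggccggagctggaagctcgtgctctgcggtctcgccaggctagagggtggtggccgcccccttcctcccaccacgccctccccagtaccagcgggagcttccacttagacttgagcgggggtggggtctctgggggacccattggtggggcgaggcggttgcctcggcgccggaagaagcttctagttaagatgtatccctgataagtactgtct
The 250 bases before XRCC6 hold 2 such words, CATGTG and CACATG, and the 42 bases of LIG4 and the 250 bases of TP53BP1 hold 0. CANNTG is a common word, found in 68.7% of all RefSeq promoter windows of 300 bases. The stretches also differ in length, so their counts were not compared. GENCODE places the starts closer, 120 bases apart for XRCC6 and DESI1, 24 for LIG4 and ABHD13 and 230 for TP53BP1 and MAP1A. Under that annotation, part of a stretch may lie within a transcript. The MYC family E-box CACGTG was found in 0 of the 15 promoter windows of 300 bases (250 before and 50 after a start) that RefSeq gives for 8 of the 10 genes; XRCC5 and PRKDC had no entry. The same word occurs in 7.26% of all 35116 windows and in 9.74% of the windows of tested genes. A missing word in this window says nothing about binding of the factor elsewhere.

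**Figure D1:**
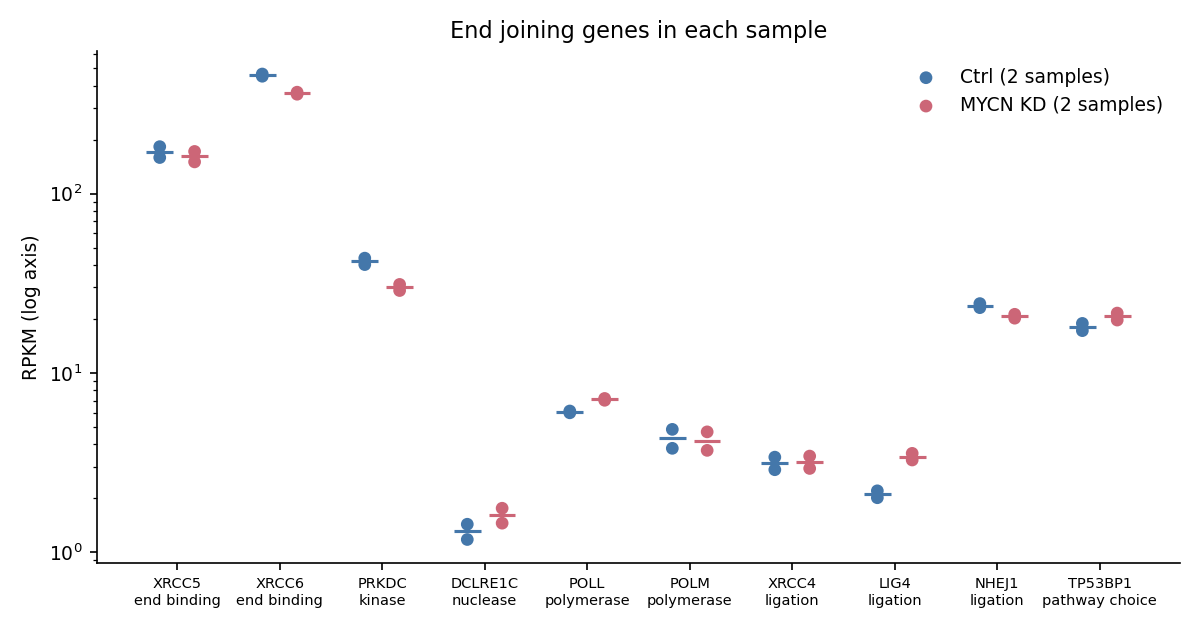
RPKM of the 10 end joining genes on a log axis, with 1 point for each sample and a short line at the mean of 2 samples. XRCC6 and PRKDC lie lower and LIG4 and POLL higher in MYCN KD, and the levels run from about 1.18 RPKM (DCLRE1C) to 465.3 RPKM (XRCC6).

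The levels of the 10 genes spanned a wide range, with the Ku genes far above the rest. In Ctrl the order of mean RPKM was XRCC6, XRCC5, PRKDC, NHEJ1, TP53BP1, POLL, POLM, XRCC4, LIG4 and DCLRE1C, and no 2 neighbours in that order overlapped between samples. In MYCN KD NHEJ1 and TP53BP1 overlapped, as did LIG4 and XRCC4, and LIG4 stood above XRCC4 in mean. XRCC6 and XRCC5 together supplied most of the summed RPKM, with XRCC6 alone at 63.7% and 61.9% in the controls and at 58.2% and 60.0% after knockdown. Among tested genes, XRCC6 lay at the 98.9th percentile of mean expression, PRKDC at the 80.1st, LIG4 at the 17.5th and DCLRE1C at the 5.77th.

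Of the end-binding genes, XRCC6 was called and XRCC5 was not, and a difference between them was not shown. XRCC6 (Ku70; chromosome 22 of GRCh37, 42017167 to 42060052, plus strand, 13 exons in the canonical transcript) had 452.3 and 465.3 RPKM in Ctrl, against 368.5 and 358.9 RPKM in MYCN KD. Both knockdown samples lay below both controls, and the mean fell by 20.7%. The log2 fold change was -0.33 (standard error 0.035, limma adjusted p = 0.00825). GENCODE lists 5 pseudogenes named after XRCC6 and 1 named after DCLRE1C, and how the authors' counting treated reads shared with such copies is not given in the sources used here. In bulk RNA, fewer transcripts in each cell and fewer cells that express the gene cannot be told apart. DESI1, a deSUMOylating peptidase gene across the stretch shown above, had 48.5 and 45.1 RPKM in Ctrl, against 33.0 and 35.5 RPKM in MYCN KD (log2 fold change -0.44, limma adjusted p = 0.0143).

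XRCC5 (Ku80; chromosome 2, 216972187 to 217071026, plus strand, 21 exons) did not pass the threshold. It had 159.1 and 183.0 RPKM in Ctrl, against 172.1 and 150.5 RPKM in MYCN KD, and the samples of the conditions overlapped. Its log2 fold change was -0.08 with a 95% interval from -0.41 to 0.24 (limma adjusted p = 0.558), an interval that includes the change of XRCC6. The log2 ratio of XRCC5 to XRCC6 was -1.50 and -1.34 in Ctrl, against -1.09 and -1.25 in MYCN KD. The ratio was therefore higher in both knockdown samples, by 0.25. With 2 samples against 2, a two-sided exact permutation test cannot go below p = 0.333, the value reached here, so that the ratios of partner genes are descriptions.

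PRKDC (DNA-PKcs; chromosome 8, 48685672 to 48872738, minus strand, 87 exons) showed the largest fall of the 10 genes. It had 40.2 and 43.7 RPKM in Ctrl, against 31.2 and 28.8 RPKM in MYCN KD, without overlap, and the mean fell by 28.5%. Its log2 fold change was -0.47 (standard error 0.069, limma adjusted p = 0.0147). PRKDC starts 7 bases from MCM4, a subunit of the replicative helicase, which is transcribed in the opposite direction. MCM4 had 104.2 and 111.5 RPKM in Ctrl, against 76.6 and 71.8 RPKM in MYCN KD (log2 fold change -0.53, limma adjusted p = 0.00881). The 6 proliferation markers, MCM4 among them, summed to 629.9 and 706.2 RPKM in Ctrl, against 459.4 and 420.7 RPKM in MYCN KD. Of the 6, 4 were called lower, where 22.8% of all tested genes were. MKI67 (log2 fold change 0.0024, limma adjusted p = 0.978) and TOP2A (-0.16, adjusted p = 0.354) were not called. The part of proliferation in the falls of PRKDC and XRCC6 was not tested. The log2 ratio of PRKDC to XRCC5, its binding partner at the ends, was -1.96 and -2.04 in Ctrl, against -2.43 and -2.35 in MYCN KD, lower by more than the spread within conditions (exact permutation p = 0.333).

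**Figure D2:**
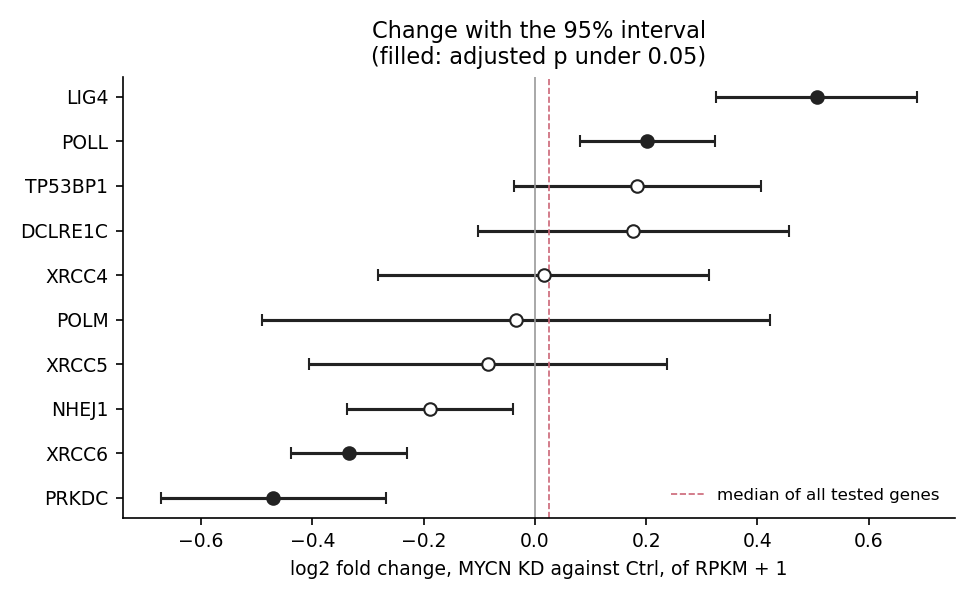
Log2 fold change (MYCN KD against Ctrl, of RPKM + 1) of the 10 genes from the limma fit, with 95% intervals, filled where the adjusted p was under 0.05. The intervals of PRKDC and XRCC6 lie below 0 and those of LIG4 and POLL above it; that of NHEJ1 also lies below 0, with an adjusted p of 0.0532. The dashed line is the median of all tested genes, 0.026.

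The nuclease gene DCLRE1C (Artemis; chromosome 10, 14939358 to 14996431, minus strand, 14 exons) was the least abundant. It had 1.18 and 1.43 RPKM in Ctrl, against 1.76 and 1.45 RPKM in MYCN KD. The knockdown samples lay above the controls, but the 95% Poisson intervals of the recovered counts, which the authors had normalized, overlapped. The interval of the higher control reached 1.60 RPKM and that of the lower knockdown sample began at 1.29 RPKM. The log2 fold change was 0.18 with a 95% interval from -0.10 to 0.46 (limma adjusted p = 0.206). It was 0.097 without Ctrl replicate 1, 0.092 without MYCN KD replicate 1 and 0.053 with quantile normalization, against 0.28 with a pseudocount of 0.1 and 0.30 in limma voom, and was not called in any of these. Its 3′ end overlaps SUV39H2, a histone methyltransferase gene on the other strand, over 6957 bases. SUV39H2 fell from 8.72 and 9.40 RPKM to 5.54 and 5.17 RPKM (log2 fold change -0.66, limma adjusted p = 0.00684). Whether reads were counted by strand is not given in the sources used here, so reads of overlapping genes may not be told apart.

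The 2 gap-filling polymerases of this pathway, both of the X family, were present at low levels. POLL (polymerase lambda; chromosome 10, 103338639 to 103348027, minus strand, 9 exons) had 6.13 and 5.99 RPKM in Ctrl, against 7.03 and 7.20 RPKM in MYCN KD. All knockdown values were above all controls, with a mean 17.5% higher. Its log2 fold change was 0.20 (standard error 0.041, limma adjusted p = 0.0294). The call was lost when any 1 sample was left out, although the log2 fold change stayed between 0.19 and 0.22. Those fits leave 1 sample in a condition, and the standard error of POLL was 0.15 in each, against 0.041 with all samples. The call was also lost with quantile normalization (adjusted p = 0.106). POLL lies within the span of DPCD on the opposite strand, which had 26.4 and 25.5 RPKM in Ctrl, against 27.7 and 28.6 RPKM in MYCN KD (log2 fold change 0.11, limma adjusted p = 0.101).

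POLM (polymerase mu; chromosome 7, 44111661 to 44122129, minus strand, 11 exons) had 4.84 and 3.79 RPKM in Ctrl, against 3.69 and 4.69 RPKM in MYCN KD. The conditions overlapped almost completely. Its log2 fold change was -0.03 with a 95% interval from -0.49 to 0.42 (limma adjusted p = 0.870), the widest interval among the 10 genes. The log2 ratio of POLL to POLM was 0.29 and 0.54 in Ctrl, against 0.77 and 0.53 in MYCN KD, with overlap (exact permutation p = 0.667), so a difference between the 2 polymerases was not shown.

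LIG4 (ligase IV; chromosome 13, 108859787 to 108870716, minus strand, 3 exons) showed the largest rise. It had 2.01 and 2.20 RPKM in Ctrl, against 3.56 and 3.26 RPKM in MYCN KD. The ratio of mean RPKM was 1.62, and the log2 fold change on the log2(RPKM + 1) scale was 0.51 (standard error 0.061, limma adjusted p = 0.0103). The counts recovered for LIG4 were 299 and 306 in Ctrl, against 450 and 440 in MYCN KD, or a multiple of these. They are counts as normalized by the authors and need not equal the reads sequenced. The upper end of the 95% Poisson interval in the higher control was 2.46 RPKM, below the lower end of 2.97 RPKM in the lower knockdown sample. These intervals rest on the normalized counts and do not cover the spread between samples. ABHD13, across the 42 bases shown above, had 2.46 and 2.87 RPKM in Ctrl, against 2.64 and 2.27 RPKM in MYCN KD (log2 fold change -0.09, limma adjusted p = 0.482).

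XRCC4 (chromosome 5, 82373317 to 82649606, plus strand, 8 exons), the scaffold that stabilises ligase IV, had 3.39 and 2.88 RPKM in Ctrl, against 2.93 and 3.43 RPKM in MYCN KD. The values overlapped, with a log2 fold change of 0.016 and a 95% interval from -0.28 to 0.31 (limma adjusted p = 0.904). The log2 ratio of LIG4 to XRCC4 was -0.54 and -0.28 in Ctrl, against 0.21 and -0.06 in MYCN KD. In RPKM, LIG4 stood at 0.594 and 0.762 of XRCC4 in Ctrl and at 1.21 and 0.951 of it in MYCN KD. The difference in the log2 ratio was 0.49 (exact permutation p = 0.333, the smallest possible). TMEM167A, whose start overlaps that of XRCC4 over 366 bases on the other strand, had 10.5 and 12.7 RPKM in Ctrl, against 18.3 and 15.2 RPKM in MYCN KD (log2 fold change 0.50, limma adjusted p = 0.0580).

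NHEJ1 (XLF; chromosome 2, 219934077 to 220025591, minus strand, 8 exons), which stimulates ligation, had 23.1 and 24.4 RPKM in Ctrl, against 21.2 and 20.2 RPKM in MYCN KD. Both knockdown samples were below both controls. The log2 fold change of -0.19 (standard error 0.051) narrowly missed the threshold (limma adjusted p = 0.0532). It passed with quantile normalization (adjusted p = 0.0437) and among genes with a mean of at least 5 RPKM (adjusted p = 0.0499). The log2 ratio of NHEJ1 to XRCC4, its structural relative, was 2.46 and 2.71 in Ctrl, against 2.50 and 2.26 in MYCN KD and overlapped (exact permutation p = 0.667).

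**Figure D3:**
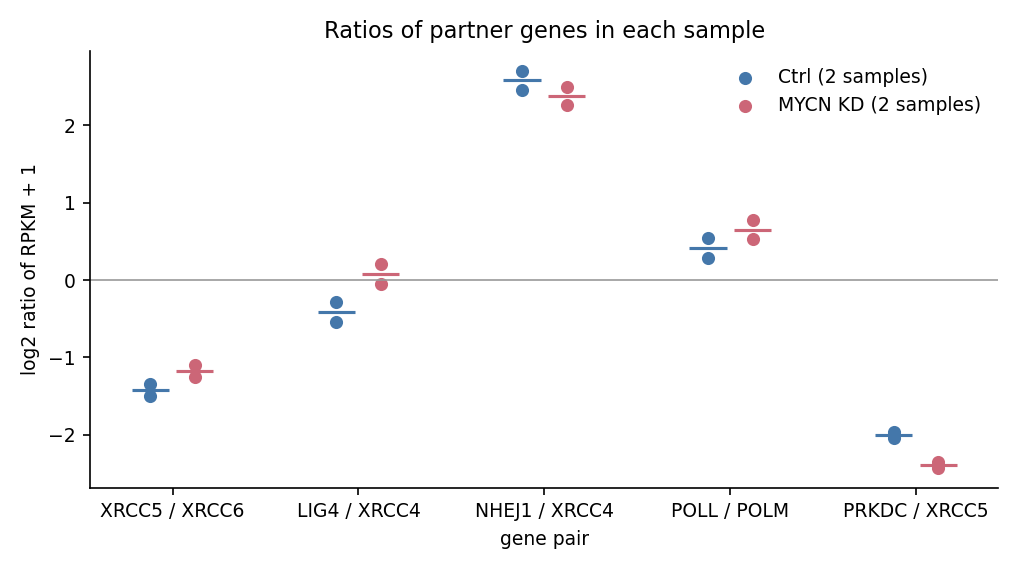
Log2 ratio of RPKM + 1 for 5 pairs of partner genes, with 1 point for each sample and a line at the mean of each condition. XRCC5/XRCC6 and LIG4/XRCC4 lie higher and PRKDC/XRCC5 lower in both MYCN KD samples, and the other two pairs overlap.

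TP53BP1 (53BP1; chromosome 15, 43695259 to 43802926, minus strand, 28 exons) had 17.2 and 18.9 RPKM in Ctrl, against 21.6 and 19.7 RPKM in MYCN KD. Both knockdown samples lay above both controls. Its log2 fold change was 0.18 with a 95% interval from -0.04 to 0.41, and it did not pass the threshold (limma adjusted p = 0.126). It was 0.12 without Ctrl replicate 1 and 0.12 without MYCN KD replicate 1. MAP1A, a microtubule-associated protein gene that starts on the other side of the stretch shown above, had 70.2 and 63.8 RPKM in Ctrl, against 84.2 and 92.3 RPKM in MYCN KD (log2 fold change 0.39, limma adjusted p = 0.0276). TP53BP1 overlaps TUBGCP4 on the opposite strand over 6711 bases. TUBGCP4 had a log2 fold change of -0.22 (limma adjusted p = 0.138).

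Other genes of break repair were taken from lists. Of 10 accessory end joining factors, 8 were tested, 2 were called lower and 0 higher, where 22.8% of all tested genes were called lower and 25.3% higher, and the median log2 fold change was -0.14. The 2 were PAXX (listed as C9orf142), a Ku-binding relative of XRCC4, and CYREN (listed as C7orf49), a Ku-binding inhibitor of end joining. PAXX had 75.3 and 68.7 RPKM in Ctrl, against 56.0 and 61.3 RPKM in MYCN KD (log2 fold change -0.29, limma adjusted p = 0.0490). CYREN had 8.77 and 8.61 RPKM in Ctrl, against 7.64 and 7.78 RPKM in MYCN KD (log2 fold change -0.15, limma adjusted p = 0.0484). Both lie close to the threshold. The lymphoid genes RAG1, RAG2 and DNTT, which act with the pathway in antigen receptor rearrangement, stayed at or below 0.105 RPKM, and DNTT, a template-independent polymerase, was at 0 in all samples.

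Of 14 genes that recruit 53BP1 or act with it, 12 were tested, of which 4 were called lower and 2 higher (median -0.18), near the background of 48.1% called in either direction. PAXIP1, which encodes the 53BP1 partner PTIP, fell from 13.1 and 14.4 RPKM to 7.70 and 7.07 RPKM (log2 fold change -0.82, limma adjusted p = 0.00633). The ubiquitin ligase gene RNF8 (log2 fold change -0.38, adjusted p = 0.0311) and the histone gene H2AFX (-0.38, adjusted p = 0.0265) also fell. NUDT16L1, whose product TIRR binds 53BP1 and keeps it off chromatin, rose by 0.34 on the log2 scale (adjusted p = 0.0311).

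Among 10 tested genes of end resection, the step that commits a break to recombination, 4 were called lower and 0 higher, with a median of -0.35, beside 22.8% lower and 48.1% called in either direction among all tested genes. The nuclease gene MRE11A fell from 6.35 and 7.11 RPKM to 3.73 and 3.35 RPKM (log2 fold change -0.77, limma adjusted p = 0.00808). RBBP8, which encodes CtIP, fell by 0.63 on the log2 scale (adjusted p = 0.00654), DNA2 by 0.55 (adjusted p = 0.0437) and EXO1 by 0.55 (adjusted p = 0.0367). Of 7 genes of alternative end joining, which uses short homologies, 4 were called lower and 0 higher (median -0.39), beside the same background of 22.8% lower and 48.1% in either direction. LIG3, which encodes a ligase of that route, fell from 46.6 and 45.4 RPKM to 29.6 and 30.5 RPKM (log2 fold change -0.60, limma adjusted p = 0.00429). PARP1 (log2 fold change -0.59, adjusted p = 0.00461), FEN1 (-0.54, adjusted p = 0.00723) and PARP2 (-0.39, adjusted p = 0.0125) fell as well. LIG1, another ligase gene of the list, was not called (log2 fold change -0.019, limma adjusted p = 0.807). POLQ (-0.13, adjusted p = 0.304) and XRCC1 (0.15, adjusted p = 0.163) were not called either. LIG3 thus fell while LIG4, the ligase of nonhomologous end joining, rose, but the rest of the list did not all follow LIG3. Whether any list differs from the 10 members was not tested.

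**Figure D4:**
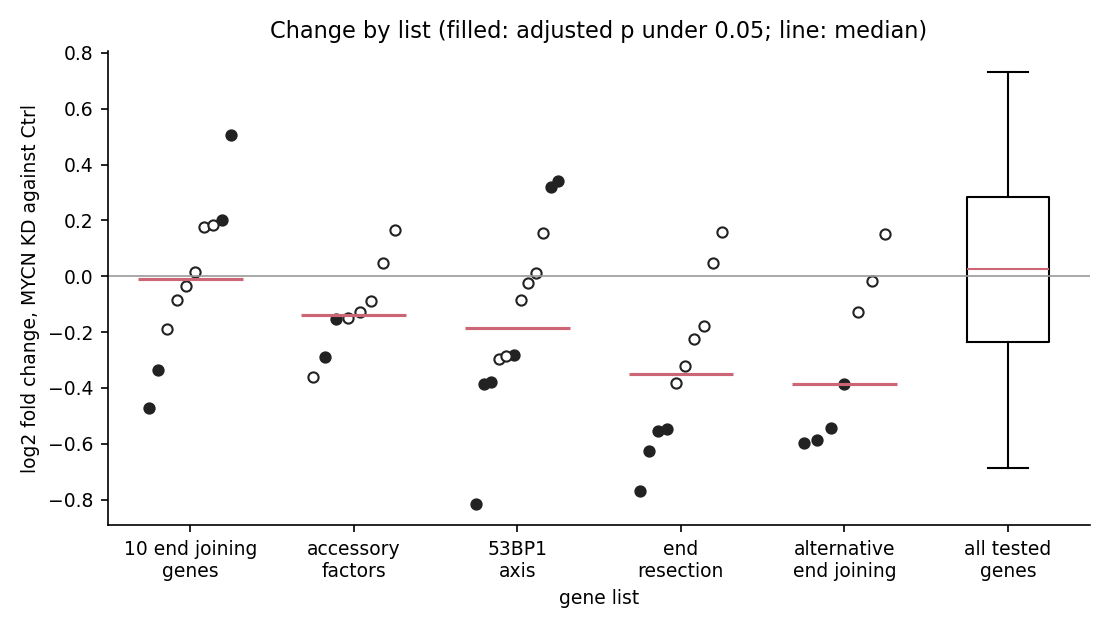
Log2 fold change (MYCN KD against Ctrl) of each tested gene in 5 lists, filled where the adjusted p was under 0.05, with a line at each median and a box for all 11411 tested genes (quartiles, whiskers at the 5th and 95th percentiles). The 10 end joining genes spread on both sides of 0 around -0.0088, while the medians of the resection and alternative end joining lists lie at -0.35 and -0.39.

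Across the 12 other ways of fitting drawn for the members, PRKDC and XRCC6 were called lower in each. LIG4 was called higher in each of the 11 that tested it, since it did not reach a mean of 5 RPKM. Without the pseudocount's damping its log2 fold change was larger, at 0.67 with a pseudocount of 0.1 and 0.70 in limma voom on the recovered counts.

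**Figure D5:**
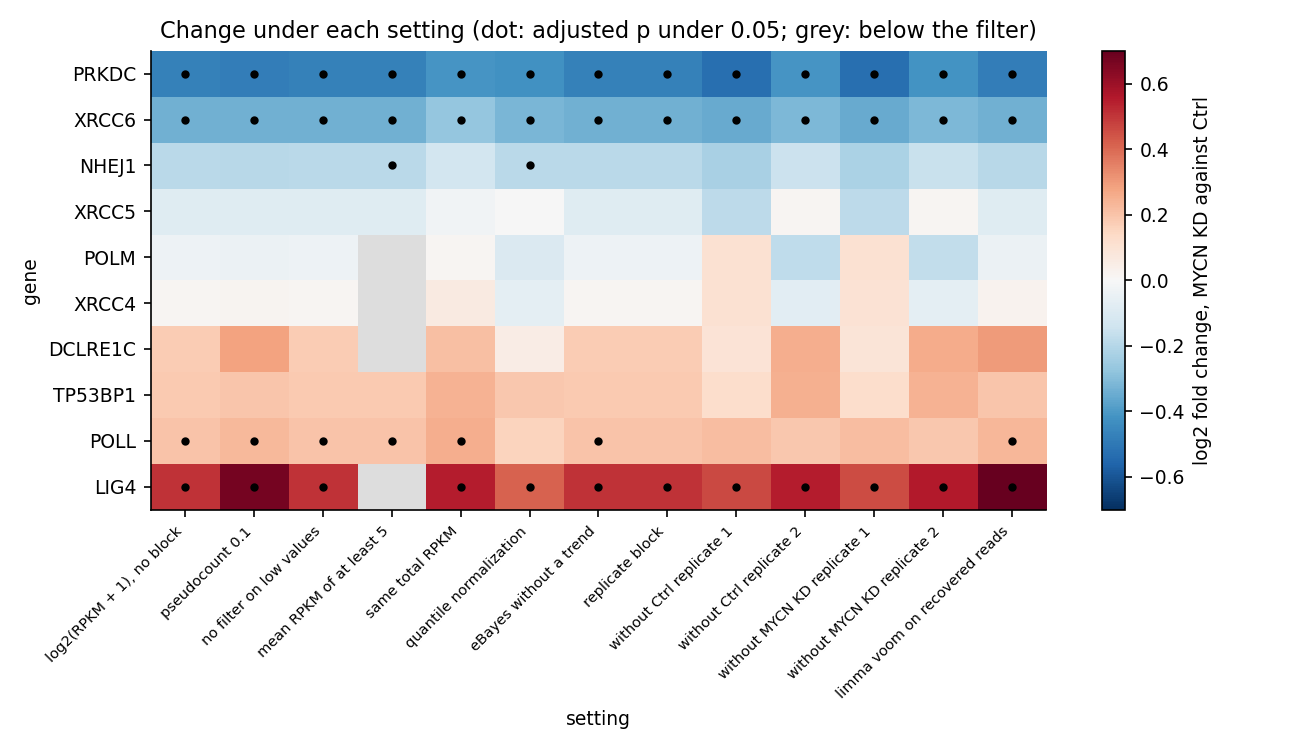
Log2 fold change (colour, MYCN KD against Ctrl) of the 10 genes under each setting, in columns, with a dot where the adjusted p was under 0.05 and grey where a gene was below the filter. PRKDC, XRCC6 and LIG4 carry a dot in each column that tested them, POLL in 7 of 13 and NHEJ1 in 2.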

How the data were processed

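RNA-seq of 4 BE(2)C samples, 2 Ctrl and 2 MYCN KD, was analysed, with conditions and replicate numbers from the sample titles. Alignment by the authors was to hg19 (HISAT2 2.1.0), and featureCounts gave reads for each RefSeq gene. The authors then modelled the reads with DESeq2 and took out unwanted variation with RUVSeq. The deposited values are RPKM of the resulting normalized counts, in a file for each sample. Counts before RUVSeq were not analysed here, so the spread between replicates is that left after this step.

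The totals behind the samples were recovered from microRNA genes of known length, of which 94.8% to 96.4% gave whole counts (within 0.01). Each gene's recovered counts are the smallest whole numbers that fit all 4 samples, so the counts behind the RPKM can be a multiple of them. They follow the authors' normalization and need not equal the reads sequenced.

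limma 3.58.1 (R 4.3.3; linear models with moderated, mean-dependent variances, two-sided) was run on log2(RPKM + 1) for the 11411 genes whose mean reached 1 RPKM. Benjamini-Hochberg adjustment ran over all of them, at a threshold of 0.05. Ratios used exact permutation tests in scipy 1.17.1 under Python 3.11.15. On counts simulated 20 times at a dispersion of 0.005, 200 of 11411 genes were changed by 1 on the log2 scale. The fit called 98.6% of these 200 genes. Unchanged genes made up 13.7% of its calls, a larger share than the threshold of 0.05 aims at. In the data, 48.1% of tested genes were called, and the largest change of a member was 0.51 (LIG4). The simulation therefore does not give the rate at which changes of the members' size are found, or the share of false calls in these data. Gene positions came from GENCODE release v44 lifted to GRCh37, and promoter windows from RefSeq on GRCh38.p14.

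The members and lists were chosen with earlier results of these data known. Genes named were the members, MYCN, up to 4 called genes of each pathway list with the largest change and no overlap, genes of those lists at 0 throughout, and genes starting head to head with a member. Genes overlapping a member were added after their values were seen, as were MKI67, TOP2A, RAG1, RAG2, LIG1, POLQ, XRCC1 and MDC1. Alternatives were another pseudocount, other filters, quantile normalization, a common total RPKM, a constant eBayes prior, the replicate block and each sample left out. Limma voom on the recovered counts and a crossed replicate block were added after seeing the data. The study's chromatin data were not analysed here.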

Additional observations from a re-analysis of the deposited data

How the results depend on the processing

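The directions and calls of PRKDC, XRCC6, LIG4 and MYCN held under each alternative that tested them, with log2 fold changes from -0.53 to -0.41 for PRKDC and from -0.35 to -0.31 for XRCC6 with a sample left out, from 0.46 to 0.55 for LIG4 and from -0.58 to -0.57 for MYCN. With quantile normalization MYCN was at -0.38. Where a sample was left out, the lone sample was assumed to vary like the other condition. Leaving out replicate 1 of Ctrl or of MYCN KD gave nearly the same values (PRKDC -0.529 and -0.525, LIG4 0.463 and 0.459). The fits with a sample left out are therefore not all separate checks. Same-numbered samples did not deviate together: over 11411 genes the deviations of replicate 1 in Ctrl and in MYCN KD had a correlation of -0.9845, so the numbers do not pair the samples, and the 4 samples carry less independent information than 2 separate samples in each condition would. With the replicate block, 2077 genes were called higher and 1851 lower, against 2890 and 2599, and 1 member was called higher and 2 lower, with POLL at 0.20 (adjusted p = 0.390). Crossed numbers, added after seeing the data, gave 5910 and 5262 of the 11411 genes and 5 and 5 of the 10 members. Nearly every gene was called, even XRCC4 at 0.016, because crossing leaves almost no spread. These calls therefore say nothing about the members.

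POLL was also lost with quantile normalization (0.15), and ranged between 0.19 and 0.22 when samples were left out. NHEJ1 passed with quantile normalization (-0.19, adjusted p = 0.0437) and at a mean of 5 RPKM or more (-0.19, adjusted p = 0.0499). Genes that were not called changed sign: POLM to 0.015 with the same total RPKM, XRCC4 to -0.071 with quantile normalization, and, with a sample left out, XRCC5 (from -0.18 to 0.016), POLM (from -0.18 to 0.11) and XRCC4 (from -0.072 to 0.10). The causes were not tested.

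Members called higher were 1 with quantile normalization and 1 at a mean of 5 RPKM or more, where LIG4 was not tested, against 2 of 10. Among all 11411 tested genes, 2901 were called higher with quantile normalization, against 2890. The members' median was 0.039 with the same total RPKM, -0.036 with quantile normalization, -0.14 at a mean of 5 RPKM or more, which left 6 members, and -0.029 to 0.10 when samples were left out. At a mean of 5 RPKM or more, which tests 7859 genes, 1868 were called higher. Over the pathway lists, genes called higher were 1 at a mean of 5 RPKM or more, 1 with quantile normalization and 0 with the replicate block, against 2. Genes of these lists called lower were 9 without a filter and 9 with the same total RPKM, against 14. Among all tested genes, 2594 of 19908 were called lower without a filter and 2122 of 11411 with the same total RPKM, against 2599 of 11411. The share called lower over all genes thus shrank in both settings as well. List medians were -0.082 (same total RPKM) and -0.17 (quantile normalization) for accessory factors, -0.085 (no filter) and from -0.18 to -0.11 (a sample left out) for the 53BP1 axis, and, at a mean of 5 RPKM or more, -0.55 for end resection and -0.46 for alternative end joining. The wider word CANNTG was found in 68.7% of all promoter windows and in 60.3% of those of tested genes. Among the members it was in 10 of 15 windows (66.7%), which belong to 5 of the 8 members that have a window. The lowest recovered count of a member was 145, for XRCC4 in MYCN KD replicate 1. It is a normalized count, and the count behind the RPKM can be a multiple of it.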

Other observations

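MDC1, which recruits 53BP1 pathway factors to breaks, was listed at no more than 0.02 RPKM in all samples and was not tested. Of 32 listed genes within 500 kb of it on chromosome 6, 27 had a mean below 0.05 RPKM, so its level is given for these files and not as the level in the cells.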
